A study of Homo sapiens with 6 samples.

Results

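The genes described here are 10 components of the NF-kB pathway: the subunit genes RELA, NFKB1, NFKB2 and RELB, the inhibitors and feedback genes NFKBIA, NFKBIZ and TNFAIP3, and the adaptor, ligase and kinase genes TRAF2, BIRC3 and MAP3K14. They were taken by symbol from a count table of 57773 genes, in which each symbol matched 1 row. All 10 passed the filter on low counts that left 15848 genes for testing. The set was chosen by pathway membership with the measured fold changes and adjusted p-values of this same comparison known. Their differences between the groups are therefore given as a description, and no p-value is printed for them.

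The cells were A549, an established line from a human lung adenocarcinoma, grown in RPMI-1640 with fetal bovine serum. The treated group (rhSP-D, 3 samples) received recombinant human surfactant protein D at 10 µg/ml for 48 h. The vehicle group (3 samples) received, for the same time, the same volume of the buffer in which the purified protein was eluted. Surfactant protein D belongs to the collectins, secreted lectins that take part in the innate defence of the airways.

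NF-kB transcription factors are dimers of Rel family subunits. In the canonical pathway, receptors for tumour necrosis factor, interleukin-1 or microbial products act through ubiquitin chains and the IkB kinase complex, which marks IkB proteins such as the product of NFKBIA for degradation and frees mainly dimers with RELA. In the noncanonical pathway, the kinase NIK, encoded by MAP3K14, is kept scarce by a complex of TRAF2, TRAF3 and the ligases encoded by BIRC2 and BIRC3. When that complex is drawn to a receptor, NIK activates the kinase encoded by CHUK, the NFKB2 precursor is processed, and dimers with RELB enter the nucleus. Several members, NFKBIA, TNFAIP3, BIRC3, NFKB2 and RELB among them, are also known targets of NF-kB itself, and these names are not a full list.

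Libraries held 18599955 to 26030880 counts in rhSP-D and 11396193 to 19803697 in vehicle, and vehicle replicate 1, the shallowest, lay apart on the first principal component (29.3% of variance), at 38.2 against -12.3 to -3.59 for the others. Results that rest on it are given without it below. Epithelial markers summed to 12512 to 12745 CPM (counts scaled to a common library size) in rhSP-D and to 11999 to 12125 CPM in vehicle; 2 of the 7 tested were higher in rhSP-D, KRT7 and KRT18. Alveolar type II markers summed to 79.9 to 82.2 CPM in rhSP-D and 83.5 to 86.2 CPM in vehicle, most of it ABCA3, with 0 of the 2 tested called and SFTPB, SFTPA1 and NKX2-1 under 0.1 CPM. Lymphocyte markers summed to 1.13 to 1.51 CPM in rhSP-D and 0.952 to 1.09 CPM in vehicle, with CD3D and MS4A1 at 0. The macrophage and monocyte list summed to 93.7 to 99.2 CPM in rhSP-D and 86.8 to 91.4 CPM in vehicle, most of it CD68, the 1 gene of the list that rose, with CD163 and FCGR3A at 0. Fibroblast markers summed to 13.5 to 14.3 CPM in rhSP-D and 10.8 to 14.97 CPM in vehicle, and endothelial markers to 0.164 to 0.234 CPM in rhSP-D and 0.0865 to 0.223 CPM in vehicle, and no tested gene of these 2 lists, or of the lymphocyte list, passed. The part of these markers in the results was not tested.

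Sequences upstream of the members are shown because Rel dimers bind a short motif, the kB site, and several members carry it close to their transcript starts. The RefSeq promoter table (GRCh38.p14) held 14 start sites for 9 members, RELB being the other. Both strands of the 250 bases before each start were searched for the kB consensus. It was found at 8 of the 14 member starts and for 6 of the 9 members, against 9.96% of all 35116 starts and 11.8% of 27305 genes in the table. A looser pattern, GGG and CC with any 5 bases between them, which includes every match of the consensus, was found at 13 of the 14 member starts and at 54.4% of all starts. GC content of the member windows ran from 48.4% to 79.2%, and the share was not matched for it. Matches of the consensus are in capitals in the lines that follow, read 5′ to 3′ on the strand of the gene. Where bases of a window also lie in an annotated exon, only a stretch of 30 bases around the match, or the part before the exon, is given.
NFKBIA, upstream (chr14:35404750-35404999, minus strand): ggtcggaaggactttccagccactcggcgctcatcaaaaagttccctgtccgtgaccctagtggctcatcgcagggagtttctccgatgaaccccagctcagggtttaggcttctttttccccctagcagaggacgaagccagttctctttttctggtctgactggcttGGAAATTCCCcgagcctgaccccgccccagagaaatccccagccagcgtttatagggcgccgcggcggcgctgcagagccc
NFKBIZ, upstream of its first start (chr3:101827740-101827989, plus strand): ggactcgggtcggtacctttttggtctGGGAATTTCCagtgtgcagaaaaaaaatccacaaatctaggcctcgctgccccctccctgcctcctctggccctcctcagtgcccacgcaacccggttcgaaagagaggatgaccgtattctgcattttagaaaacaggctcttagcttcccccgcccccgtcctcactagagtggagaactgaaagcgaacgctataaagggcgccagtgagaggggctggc
BIRC3, upstream (chr11:102317234-102317449, plus strand): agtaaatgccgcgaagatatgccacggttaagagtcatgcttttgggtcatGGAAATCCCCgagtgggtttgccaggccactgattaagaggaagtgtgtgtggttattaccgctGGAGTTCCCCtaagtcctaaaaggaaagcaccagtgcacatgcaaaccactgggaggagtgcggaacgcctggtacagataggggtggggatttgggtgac
NFKB2, start 2, distal site (chr10:102394462-102394491, plus strand): aaacgtcatGGGAATTCCCCcctccggggg
NFKB2, start 2, proximal site (chr10:102394490-102394519, plus strand): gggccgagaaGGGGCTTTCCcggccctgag
NFKB2, start 3, distal site (chr10:102395519-102395548, plus strand): aacccccaccGGGGCTTCCCggattctcct
NFKB2, start 3, proximal site (chr10:102395674-102395703, plus strand): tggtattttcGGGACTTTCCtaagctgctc
NFKB1, first start (chr4:102501300-102501329, plus strand): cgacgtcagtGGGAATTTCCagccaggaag
TNFAIP3, tandem sites (chr6:137867188-137867217, plus strand): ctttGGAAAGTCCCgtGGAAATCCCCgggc

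At start 2 of NFKB2 the distal capitals hold 2 matches that overlap by all but 1 base, and the pair upstream of TNFAIP3 begins 67 and 55 bases before its start. The match of NFKBIA begins 81 bases before its start. NFKBIZ also has a match that begins 239 bases before its start 2, which is not among the printed lines. No match of the consensus was found in the windows of RELA, TRAF2 and MAP3K14. A match is a run of letters in these windows and not a measured binding site.

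**Figure D1:**
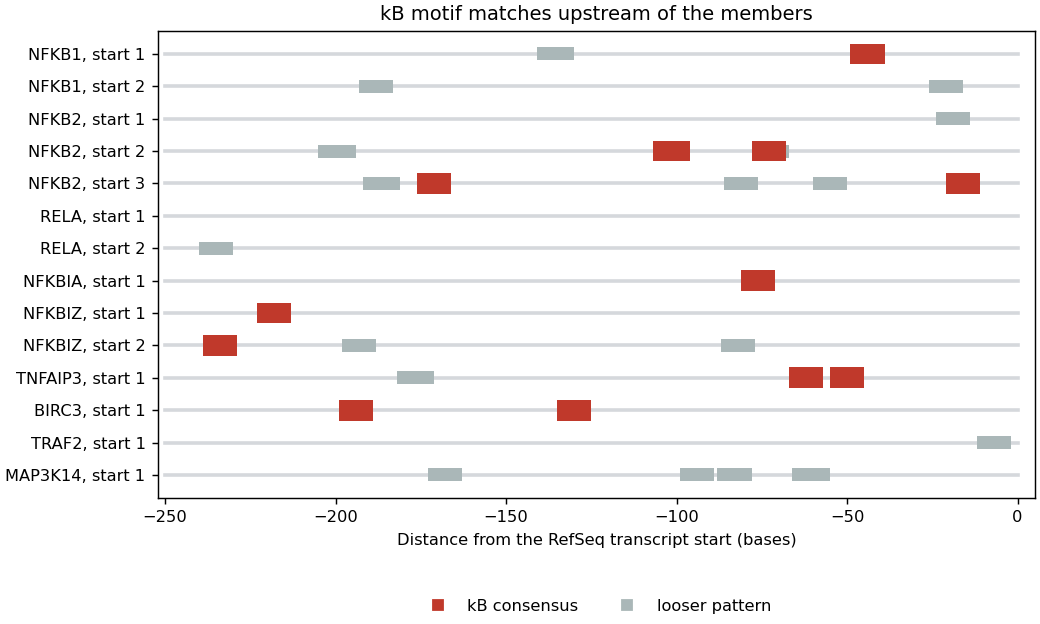
Positions of motif matches in the 250 bases before each RefSeq transcript start of 9 members, numbered in the direction of transcription, in bases from the start. Red blocks are kB consensus matches and grey blocks those of the looser pattern only; NFKB2 carries red blocks at starts 2 and 3 and NFKBIA 1 red block 81 bases before its start.

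The rhSP-D cultures held more RNA of the noncanonical subunits NFKB2 and RELB and of the inhibitor NFKBIA, with smaller or less certain differences for TRAF2 and TNFAIP3, while RELA, NFKB1, NFKBIZ, BIRC3 and MAP3K14 were close to their vehicle levels. In the fit across all genes 5 of the 10 members were among those higher in rhSP-D and 0 among those lower, while 15.9% of all genes tested were called, 9.31% as higher and 6.63% as lower. No member was lower at an unadjusted p under 0.05 either, and DESeq2 also called 0 lower. In 6 of the 10 all rhSP-D libraries lay above all vehicle libraries, as in 16.2% of all genes tested, and in 0 all lay below, as in 15.4%. These counts were fixed in part by how the members were chosen, and nothing is read from them. Scaling by library totals alone gave 856 genes higher and 1961 lower over all genes, against 1475 and 1051 with TMM scaling, and moved the median of all genes by -0.04 on the log2 scale; the same 5 members passed under both. In RNA of whole cultures, more cells with a transcript and more of it per cell cannot be told apart.

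Of the subunits, RELA and NFKB1 encode the canonical pair. RELA (ENSG00000173039, chromosome 11, 65653596 to 65663094, GRCh38) had 101, 98.5 and 97.4 CPM in the 3 rhSP-D libraries, against 102, 99.5 and 96.2 CPM in the vehicle libraries. The groups overlapped throughout, and the log2 change was 0.00 ± 0.03 (SE), with a 95% interval from -4.44% to 5.01%. NFKB1 (ENSG00000109320, chromosome 4, 102501329 to 102617302) had 29.5, 28.1 and 28.1 CPM in rhSP-D, against 29.2, 27.5 and 29.3 CPM in vehicle. These groups overlapped as well, with a log2 change of -0.002 ± 0.06 (SE) and an interval from -7.78% to 8.17%. The spread of RELA between replicates was 2.10% of the mean in rhSP-D and 3.17% in vehicle, where counting alone gives 2.17% and 2.47%.

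NFKB2 and RELB encode the noncanonical pair. NFKB2 (ENSG00000077150, chromosome 10, 102394110 to 102402529) had 55.6, 56.9 and 56.4 CPM in rhSP-D, against 39.8, 42.5 and 42.3 CPM in vehicle. All 3 rhSP-D libraries lay above all vehicle libraries, and the mean was 56.3 ± 0.681 CPM in rhSP-D and 41.5 ± 1.51 CPM in vehicle (SD, n = 3 each), a log2 change of 0.43 ± 0.04 (SE) or 34.8% (95% interval 26.6% to 43.4%). RELB (ENSG00000104856, chromosome 19, 45001430 to 45038198) had 32.6, 28.4 and 30.5 CPM in rhSP-D, against 22.7, 22.3 and 21.7 CPM in vehicle. Again the groups did not overlap, as was the case for 31.5% of all genes tested. Its log2 change was 0.47 ± 0.06 (SE), or 38.3% (26.6% to 51.1%). RELB varied more between the rhSP-D libraries (7.04% of the mean) than between the vehicle libraries (2.26%), with replicate 1, the deepest library, highest. Without vehicle replicate 1 the log2 changes were 0.41 for NFKB2, 0.48 for RELB, 0.35 for NFKBIA and 0.22 for TRAF2, and all 4 kept their call, as did TNFAIP3.

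**Figure D2:**
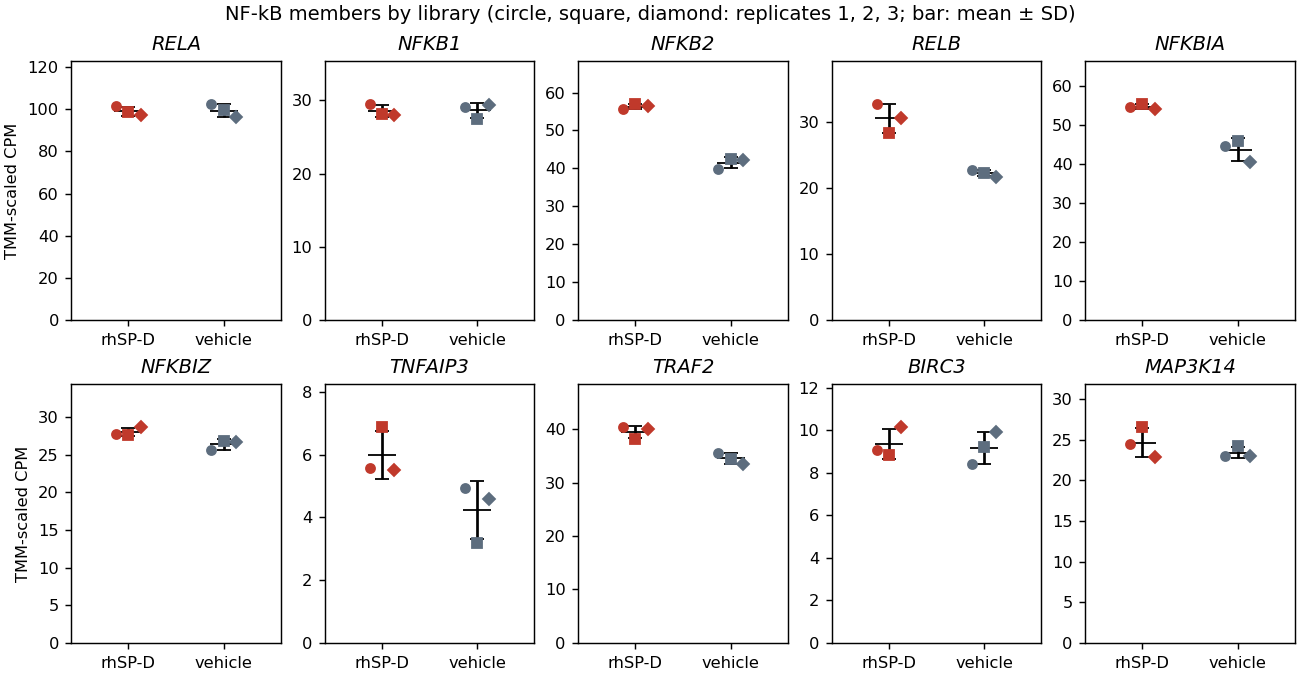
TMM-scaled CPM of the 10 members in each library, with rhSP-D on the left and vehicle on the right of each panel; symbols are replicates and bars the mean ± SD of 3 libraries. NFKB2, RELB, NFKBIA, NFKBIZ, TNFAIP3 and TRAF2 have all 3 rhSP-D values above all 3 vehicle values, while RELA, NFKB1, BIRC3 and MAP3K14 overlap.

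Ratios within a library do not depend on how libraries are scaled. They can still carry trends of a library with gene length or GC content. GC content of the longest transcript was 62.4% for NFKB2 and 50.1% for NFKB1, and 65.4% for RELB and 57.1% for RELA. Such trends were not removed from the ratios or from the shares given below, and their part in them was not tested. Per kilobase of exon, NFKB2 RNA stood to NFKB1 RNA as 2.63, 2.83 and 2.80 in the rhSP-D libraries, against 1.90, 2.16 and 2.01 in the vehicle libraries. RELB stood to RELA as 0.580, 0.518 and 0.564 in rhSP-D, against 0.398, 0.403 and 0.406 in vehicle. Both ratios were higher in every rhSP-D library than in any vehicle library. RELB and NFKB2, which encode partners in the same dimer, kept overlapping ratios to each other, 0.868, 0.736 and 0.800 in rhSP-D and 0.841, 0.775 and 0.758 in vehicle.

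Of the summed length-scaled RNA of the 5 Rel family genes, NFKB2 made up 27.5 ± 0.948% in rhSP-D and 23.4 ± 1.05% in vehicle (SD, n = 3 each), and RELB 22.03 ± 1.09% in rhSP-D and 18.4 ± 0.203% in vehicle. RELA made up 39.8 ± 0.426% in rhSP-D and 45.8 ± 0.927% in vehicle, and NFKB1 10.0 ± 0.0787% in rhSP-D and 11.5 ± 0.466% in vehicle. REL, the remaining family gene, made up under 1% in every library. The sum itself was 45.6 ± 1.04 CPM per kb in rhSP-D and 39.7 ± 0.463 CPM per kb in vehicle.

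**Figure D3:**
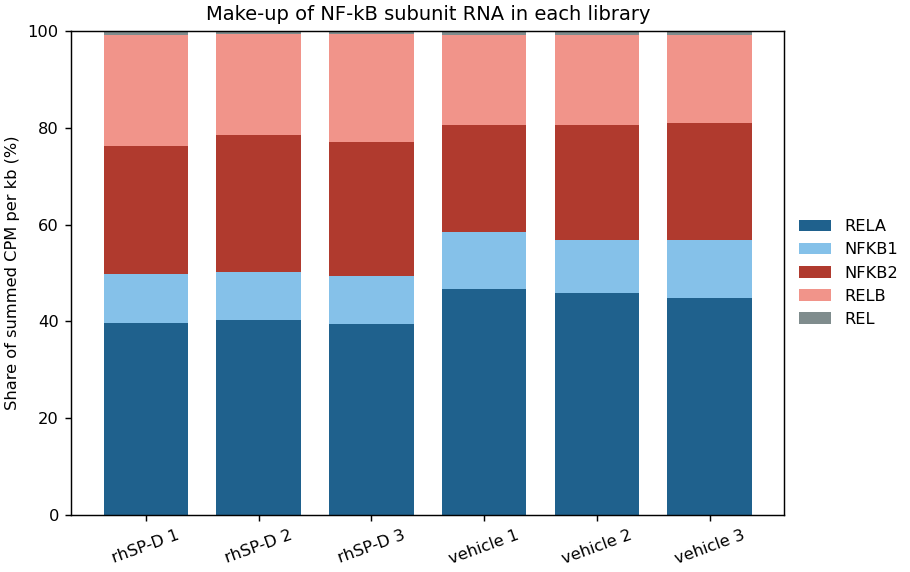
Share of each Rel family gene in the summed CPM per kilobase of exon of the family, in percent, for the 3 rhSP-D libraries on the left and the 3 vehicle libraries on the right. The red segments, NFKB2 and RELB, are taller in the rhSP-D libraries (means 27.5% and 22.03%) than in the vehicle libraries (23.4% and 18.4%).

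The inhibitors and feedback genes differed among themselves. NFKBIA (ENSG00000100906, chromosome 14, 35401511 to 35404749), which encodes the IkB-alpha inhibitor that holds RELA dimers in the cytoplasm, had 54.7, 55.3 and 54.1 CPM in rhSP-D, against 44.6, 46.0 and 40.4 CPM in vehicle. Every rhSP-D library lay above every vehicle library, and the log2 change was 0.33 ± 0.05 (SE), or 25.8% (17.6% to 34.5%). Per kilobase it stood to RELA as 1.24, 1.29 and 1.28 in rhSP-D, against 1.00, 1.06 and 0.968 in vehicle. NFKBIZ (ENSG00000144802, chromosome 3, 101827991 to 101861022), which encodes a nuclear IkB protein that modulates transcription, had 27.8, 27.6 and 28.7 CPM in rhSP-D, against 25.6, 26.9 and 26.7 CPM in vehicle. Its groups did not overlap either, but the gap was small, and the log2 change of 0.08 ± 0.06 (SE), with an interval from -2.30% to 14.7%, was not called.

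TNFAIP3 (ENSG00000118503, chromosome 6, 137867188 to 137883312), whose product edits ubiquitin chains and dampens canonical signalling, was the scarcest member, with 143, 126 and 110 counts in rhSP-D and 57, 57 and 92 counts in vehicle. Scaled for depth these were 5.58, 6.87 and 5.52 CPM in rhSP-D, against 4.93, 3.18 and 4.57 CPM in vehicle. The groups did not overlap, but rhSP-D replicate 2 and vehicle replicate 2 each stood away from the other 2 of their group, in opposite directions. The log2 change was 0.51 ± 0.16 (SE), or 42.7% with an interval from 13.7% to 79.1%. It was not called without rhSP-D replicate 1 (log2 change 0.56), rhSP-D replicate 2 (0.41) or vehicle replicate 2 (0.34), nor with all libraries thinned to the depth of the shallowest (0.35). An exon of the opposite strand overlaps 95 nt of its 5051 nt of exon.

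TRAF2, BIRC3 and MAP3K14 encode parts of the complex that controls NIK, and NIK itself. TRAF2 (ENSG00000127191, chromosome 9, 136881912 to 136926607), an adaptor of both pathways, had 40.3, 38.2 and 40.003 CPM in rhSP-D, against 35.6, 34.5 and 33.5 CPM in vehicle. All rhSP-D libraries were higher, and the log2 change was 0.20 ± 0.05 (SE), or 15.1% (7.33% to 23.5%). The call ended with trends on gene length and GC content removed (log2 change 0.15) and after thinning (0.19). BIRC3 (ENSG00000023445, chromosome 11, 102317450 to 102339403), a ubiquitin ligase and a common read-out of NF-kB activity, had 9.06, 8.83 and 10.1 CPM in rhSP-D, against 8.39, 9.20 and 9.89 CPM in vehicle. The groups overlapped, with a log2 change of 0.02 ± 0.10 (SE) and an interval from -12.7% to 17.1%. MAP3K14 (ENSG00000006062, chromosome 17, 45263119 to 45317145) had 24.4, 26.5 and 22.9 CPM in rhSP-D, against 23.0, 24.1 and 23.0 CPM in vehicle, with a log2 change of 0.07 ± 0.07 (SE) and an interval from -4.28% to 15.2%. The groups overlapped, and 713 of its 5784 nt of exon overlap exons of MAP3K14-AS1 on the opposite strand. No source used here says that counting was by strand, or how reads over such shared stretches were treated. Without a strand rule these reads could have been mixed between the genes or left out of both.

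**Figure D4:**
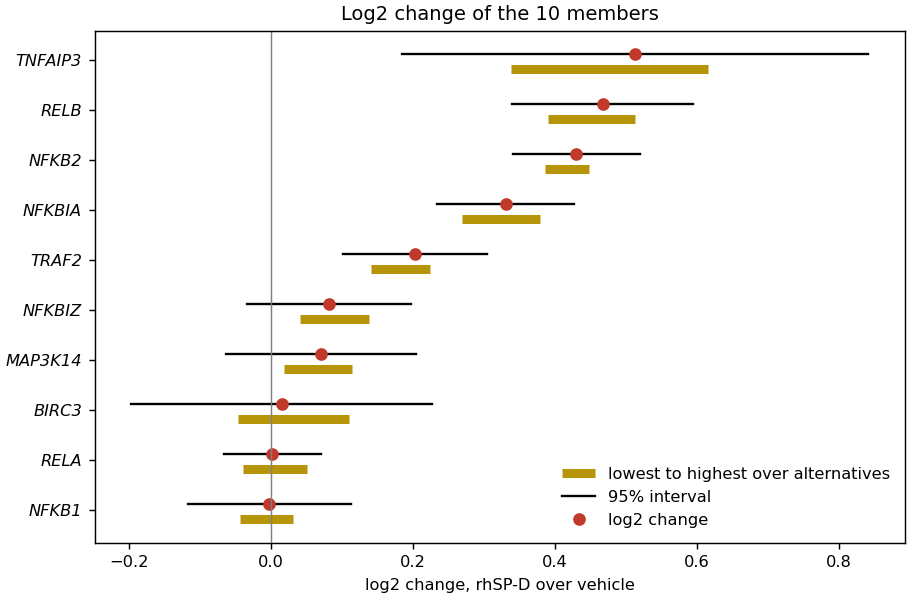
Log2 change of each member, rhSP-D over vehicle, with its 95% interval (black line) and the lowest to highest value over the alternative analyses (ochre bar). NFKB2, RELB, NFKBIA, TRAF2 and TNFAIP3 have intervals above 0, and TNFAIP3 has the widest.

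The members that were called included the 3 with the highest GC content of their longest transcript, RELB (65.4%), NFKB2 (62.4%) and TRAF2 (61.3%). BIRC3, at 34.8%, was the lowest. The other called members, NFKBIA (53.1%) and TNFAIP3 (49.5%), lay below MAP3K14 (59.0%) and RELA (57.1%), which were not called. With the trends on length and GC removed, the log2 change was 0.39 for NFKB2, 0.40 for RELB, 0.28 for NFKBIA and 0.54 for TNFAIP3, and these 4 kept their call. With library totals alone the values were 0.39, 0.43, 0.29 and 0.47.

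Levels of the members were ordered by CPM per kilobase of merged exon. In rhSP-D, NFKBIA came first at 23.1 ± 0.272, followed by RELA at 18.1 ± 0.381, NFKB2 at 12.6 ± 0.152, TRAF2 at 10.8 ± 0.310 and RELB at 10.1 ± 0.707 (SD, n = 3). NFKBIZ, NFKB1 and MAP3K14 lay at 4.75, 4.56 and 4.26, and BIRC3 and TNFAIP3 at 1.24 and 1.19. In vehicle, NFKBIA at 18.4 ± 1.22 and RELA at 18.2 ± 0.576 overlapped, and TRAF2 at 9.42 ± 0.280 overlapped NFKB2 at 9.26 ± 0.337. RELB followed at 7.32, NFKB1 at 4.58, NFKBIZ at 4.47, MAP3K14 at 4.04, BIRC3 at 1.22 and TNFAIP3 at 0.837. Neighbours whose ranges overlapped in rhSP-D were TRAF2 and RELB, NFKBIZ and NFKB1, NFKB1 and MAP3K14, and BIRC3 and TNFAIP3; in vehicle, NFKB1 and NFKBIZ overlapped besides the pairs named.

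Genes whose pattern over the 6 libraries was most like that of NFKB2, by Pearson correlation of log2 CPM among 11287 genes whose mean reached 5 CPM in each group, were DRAP1, TALDO1 and DNAJC7 (r = 0.999, 0.998 and 0.998). For NFKBIA they were TMEM147, IRAK2 and TMEM161A (r = 0.999, 0.997 and 0.997). Among the members, the correlation with NFKB2 was 0.94 for RELB, 0.93 for NFKBIA, 0.90 for TRAF2, 0.90 for NFKBIZ, which was not called, 0.71 for TNFAIP3, 0.52 for MAP3K14, 0.24 for BIRC3, -0.16 for NFKB1 and -0.17 for RELA. These values describe 6 libraries that differ by treatment, and carry no test.

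Other genes of the pathway were counted over lists of named genes. Over 5 lists with 88 tested genes, 21 rose and 4 fell, where over all genes tested 9.31% rose and 6.63% fell. With library totals alone 14 were higher and 12 lower, where over all genes tested 856 were higher and 1961 lower. DESeq2 called 1016 higher and 518 lower over all genes. For the counts at an unadjusted p under 0.05 given below, the share over all genes is not given, so they cannot be set against it. The lists were chosen with earlier results of these data known, so the counts are a description and nothing is read from them. The 4 genes with the smallest p are named from each list, so they too were picked by their values. The median log2 change of the lists together was 0.03, against -0.006 for all genes tested. The members were not in these lists. Adjusted p-values in the following sentences are from edgeR's quasi-likelihood test with Benjamini-Hochberg adjustment over all genes. They do not allow for how the lists and the named genes were picked, and are given as a description only.

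Of 12 other subunits, inhibitors and deubiquitinases or their partners, 3 rose and 0 fell in edgeR's test, with a median of 0.03. At an unadjusted p under 0.05, 3 were higher and 2 lower, and DESeq2 called 3 higher and 0 lower. The counts were 2 higher and 2 lower with library totals alone, and 0 higher and 1 lower with the length and GC trends removed as well as after thinning. TNIP2 and TNIP1, which bind the TNFAIP3 product, rose by 15.6% (log2 change 0.21 ± 0.05 SE, adjusted p = 0.00286) and 8.40% (0.12 ± 0.03, adjusted p = 0.0115). NFKBIB, which encodes the inhibitor IkB-beta, rose by 11.3% (0.15 ± 0.04, adjusted p = 0.00396). None of these calls was kept with the length and GC trends removed, where the log2 changes were 0.13, 0.09 and 0.07 for TNIP2, TNIP1 and NFKBIB, or after thinning. The ligase gene ITCH was at a log2 change of -0.13 (adjusted p = 0.0825), and was called as lower with library totals alone (-0.18) and after thinning (-0.22).

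Of 28 tested genes of canonical signalling, 3 rose and 0 fell in edgeR's test, and the median was -0.03. At an unadjusted p under 0.05, 7 were higher and 5 lower, and DESeq2 called 2 higher and 0 lower. With library totals alone the counts turned round, to 0 higher and 6 lower, and with the length and GC trends removed there were 0 in either direction. IRAK1, a kinase downstream of interleukin-1 and Toll-like receptors, was at 342 ± 8.13 CPM in rhSP-D and 321 ± 1.04 CPM in vehicle (SD, n = 3 each; log2 change 0.10 ± 0.02, adjusted p = 0.00240). SHARPIN, a subunit of the linear ubiquitin ligase, rose by 9.56% (adjusted p = 0.00624). Both calls ended with library totals alone and with the trends removed. IRAK2, a related kinase gene, rose by 19.9% with adjusted p = 0.0496, but that call was kept in only 1 of 14 other analyses, the one with DESeq2 size factors. TAB3, an adaptor of the upstream kinase complex, was at a log2 change of -0.19 (adjusted p = 0.0515), and was called as lower with library totals alone (-0.23) and without rhSP-D replicate 3 (-0.23).

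Of 11 tested genes of noncanonical signalling, 2 rose and 2 fell, against 1 and 2 with library totals alone and 2 and 1 with the trends removed or after thinning. TNFRSF12A, which encodes the receptor of the cytokine TWEAK, had 216, 207 and 214 CPM in rhSP-D, against 183, 191 and 184 CPM in vehicle. All rhSP-D libraries were higher, by 14.3% on average (log2 change 0.19 ± 0.03 SE, adjusted p = 3.12e-06). With the length and GC trends removed its log2 change was 0.10. LTBR, the lymphotoxin-beta receptor gene, rose by 6.002% (adjusted p = 0.0184), a call lost with library totals alone and without rhSP-D replicate 1, rhSP-D replicate 2 or vehicle replicate 1. CHUK, whose kinase is the target of NIK, had 30.8, 29.5 and 33.9 CPM in rhSP-D, against 37.4, 35.8 and 38.7 CPM in vehicle. All its rhSP-D libraries were lower, with a log2 change of -0.25 ± 0.06 (SE, adjusted p = 0.00193), or -0.17 with the trends removed. BIRC2, a paralog of BIRC3 that can share reads with it, fell by 11.8% (adjusted p = 0.0174), but did not pass without rhSP-D replicate 1, rhSP-D replicate 3, vehicle replicate 2 or vehicle replicate 3, with the trends removed, after thinning or in DESeq2. Transcripts of the ligands LTA, LTB and TNFSF11 and of the receptor TNFRSF13C were too scarce to test, so the counts do not cover them.

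Of 10 genes of the machinery that ubiquitinates IkB proteins, 3 rose and 0 fell in edgeR's test, with a median of 0.05; 0 were lower at an unadjusted p under 0.05, and DESeq2 called 0 lower. NEDD8, a modifier that activates cullin ligases, rose by 12.6% (log2 change 0.17 ± 0.03 SE, adjusted p = 1.38e-04). UBE2M, its conjugating enzyme, rose by 9.85% (adjusted p = 0.00140), and SKP1, a ligase subunit, by 6.40% (adjusted p = 0.0115). With the trends removed the call of UBE2M ended (log2 change 0.04), and SKP1 was at 0.20. The call of SKP1, at a log2 change of 0.09 without that step, ended with library totals alone and without rhSP-D replicate 3 or vehicle replicate 3. UBE2D3, a conjugating enzyme gene, was at a log2 change of 0.05 (adjusted p = 0.188), but at 0.16 and called with the trends removed.

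Of 27 tested targets, 10 rose and 2 fell, with a median of 0.05. EFNA1, an ephrin ligand gene inducible by tumour necrosis factor, had 106, 108 and 102 CPM in rhSP-D, against 75.3, 80.9 and 82.6 CPM in vehicle. The groups were well apart, with a log2 change of 0.39 ± 0.04 (SE, adjusted p = 5.99e-09). IER3, an early response gene that affects cell survival, rose by 22.2% (adjusted p = 1.86e-07), ZC3H12A, which encodes an RNase that degrades inflammatory transcripts, by 18.6% (adjusted p = 1.41e-06), and the complement gene C3 by 9.10% (adjusted p = 3.28e-05). With the trends removed IER3 was at a log2 change of 0.18, against 0.29 without that step. These 4 and TNFRSF12A, CHUK and NEDD8 kept their calls in all 15 other analyses bar the test against a minimum fold of 1.2. The same held for 4 targets given below, CXCL1 and SOD2, which rose, and PTGS2 and LIF, which fell.

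The remaining targets that were called, and some that were not, are named here after their values were seen. CXCL1 and CXCL8 (listed as IL8), which encode neutrophil chemokines, rose by 18.04% and 31.5%. The other tested chemokine genes of the list were not called. Their log2 changes were -0.04 for CXCL2, 0.02 for CXCL3, 0.005 for CXCL5 and 0.40 for CCL2. TNFAIP2, at -0.008, was not called either. TRAF1 had the lowest log2 change of all the lists, -0.29, and was not called (adjusted p = 0.164). GADD45B, SOD2 and IRF1 rose by 11.8%, 13.9% and 17.9%. The call of GADD45B ended with the trends removed, and those of CXCL8 and IRF1 after thinning. IL6 rose by 38.9% (adjusted p = 0.0384), but its groups overlapped, at 7.30, 7.52 and 8.13 CPM in rhSP-D against 7.44, 4.07 and 5.42 CPM in vehicle, and it passed in 6 of 14 other analyses. The 2 genes that fell were PTGS2 and LIF. PTGS2, which encodes an inducible cyclooxygenase, fell by 14.8% (adjusted p = 8.88e-04), and the cytokine gene LIF fell by 6.92% (adjusted p = 0.00723). CCL20, CXCL10, ICAM1, TNF, CSF2, IL1A, IL1B, BCL2A1, MMP9 and SAA1 were too scarce to test. Exons of the opposite strand overlap those of IER3, LTBR, IRF1, IL6, TAB3, SOD2, LIF and SKP1 over 200 nt or more, so the limit given for MAP3K14 holds for them too.

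**Figure D5:**
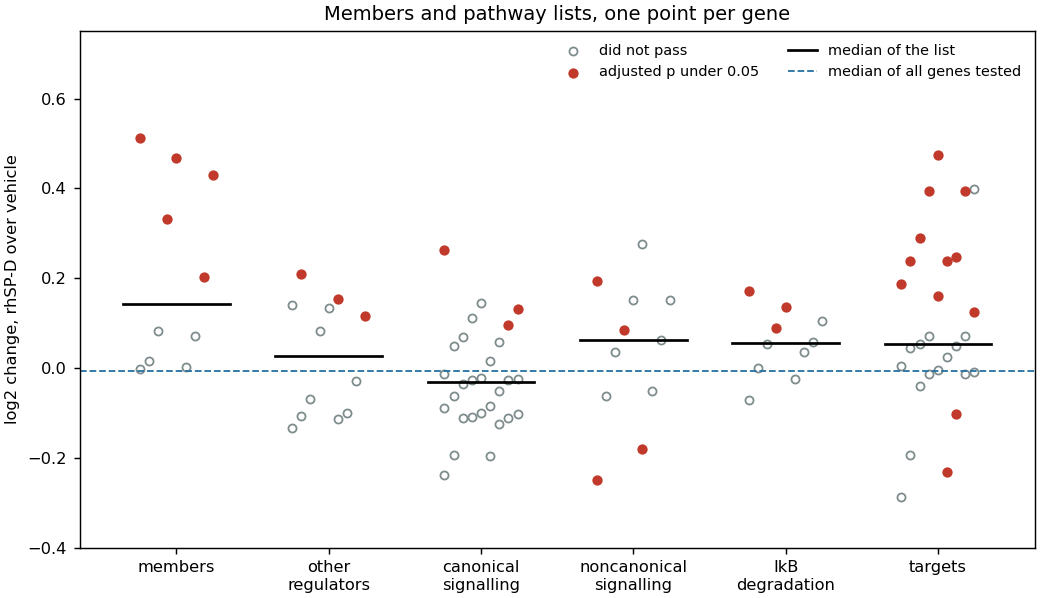
Log2 change, rhSP-D over vehicle, of each tested gene of the 10 members and 5 pathway lists; filled red points passed at an adjusted p under 0.05, black bars are list medians and the dashed line is the median of all genes tested (-0.006). Filled points below 0 appear in the noncanonical list (CHUK and BIRC2) and among the targets (PTGS2 and LIF).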

How the data were processed

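Poly(A) RNA of 6 A549 samples was measured by paired-end RNA sequencing. Per the labels' protocols, RNA came from a Trizol extraction, and the kit was NEBNext Ultra RNA. The submitters' processing notes list STAR 2.7.0a, featureCounts 2.0.0 and cutadapt, with GRCh38 as the build. Which annotation was counted, by which strand rule and with which rule for multi-mapped reads is not given in the sources used here. What the authors deposited are raw counts per Ensembl gene, as whole numbers.

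Groups follow the sample titles. Whether replicates were separate cultures is not stated, so the errors and p-values measure only the spread between these samples, which could be technical. Chi-square per degree of freedom was 1.90 to 2.13 for library pairs within a group and 3.71 to 5.77 across groups, and no pair looked like a repeat deposit. Same-numbered libraries did not deviate together (r = -0.05, 0.03 and -0.06 over 11430 genes), so the numbers were not used as pairs.

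The groups were tested in edgeR 4.0.16 (R 4.3.3), using filterByExpr (minimum count 10, minimum total 15), TMM factors, and a robust quasi-likelihood test, 2-sided, with Benjamini-Hochberg adjustment over 15848 genes and a threshold of 0.05. "Called", "rose" and "fell" mean past it. SEs come from the test statistic and intervals are 95%; they cover counting error and the fitted spread only. CPM are scaled to TMM library sizes. Coordinates, exon lengths and GC content are those of GENCODE 29 (GRCh38), which held 15347 of the genes tested and need not be the authors' annotation. Sequences are from RefSeq (GRCh38.p14).

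Alternatives were DESeq2 size factors, library totals alone, no filter, a replicate block, each library left out, DESeq2 1.42.0, voom in limma 3.58.1, offsets from natural splines (5 degrees of freedom) on GC content and log2 exonic length fitted to each library, those with the block, thinning to the shallowest total, and a minimum fold of 1.2. The procedure was tested on simulated data, drawn with the same spread for all genes and without trends on length or GC content. That test therefore cannot show how such trends move the calls. The members and lists were chosen with earlier results of these data known. Named are all members, the 4 genes of each list with the smallest p, and the 3 genes most correlated with NFKB2 and with NFKBIA; others are said to be named after their values were seen. Of the entries of the lists, OTULIN and CXCL8 were matched by Ensembl ID and PECAM1 was not matched.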

Additional observations from a re-analysis of the deposited data

How the results depend on the processing

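Over all genes 2526 were called, 1475 higher and 1051 lower. With 1 library left out the count was 1678 (without rhSP-D replicate 1, where 636 were lower) to 2182, with 1042 to 1336 higher and 636 to 892 lower; without vehicle replicate 3, 643 were lower. It was 1503 (360 lower) with the replicate block and length and GC offsets, 1486 (913 higher, 573 lower) after thinning, 1534 (518 lower) with DESeq2 and 6 (3 and 3) against a minimum fold of 1.2; the length and GC offsets alone left 1700, 1271 higher and 429 lower, so that 74.8% were higher against 58.4%, and library totals alone gave 856 higher and 1961 lower. The replicate block gave 2319 and the same 5 members. Of the members 5 were called, 4 to 5 with 1 library left out, 3 after thinning (NFKB2, RELB and NFKBIA) and 0 in edgeR against a minimum fold of 1.2, where 4 had an unadjusted p under 0.05 (DESeq2 without a minimum fold called 4). Over the pathway lists 25 were called, 21 higher and 4 lower; thinning left 13 higher, library totals gave 12 lower, and against a minimum fold of 1.2 edgeR called 0, 3 having an unadjusted p under 0.05 (DESeq2 without a minimum fold called 21). NFKB2, RELB and NFKBIA kept their calls in all 15 analyses other than the minimum fold, with log2 changes of 0.39 to 0.45, 0.39 to 0.51 and 0.27 to 0.38; DESeq2 gave no adjusted p for TNFAIP3 and BIRC3. With the length of the longest transcript, 8 of 10 members kept their place in the order of levels in vehicle, and 8 in rhSP-D. The looser motif was found for 9 members, against 6 for the kB consensus. The cause of these differences was not tested. TNFAIP3 had the fewest counts of the members, 57 to 143 a library.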
